A study of Mus musculus with 4 samples.

Results

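MHC class I carries peptides from inside a cell to its surface, where CD8+ T cells read them, and this account describes the genes of that pathway in mouse heart after myocardial infarction (MI). The genes are the heavy chains H2-K1 and H2-D1, the shared light chain B2m, the peptide transporter subunits Tap1 and Tap2, the bridging factor Tapbp, the immunoproteasome subunits Psmb8, Psmb9 and Psmb10, and the transcriptional coactivator Nlrc5. They were chosen by symbol, and all 10 were found among the 32285 features of the deposited tables and had enough counts to be tested. The data are Visium sections, in which a slide with barcoded spots captures mRNA from the small group of cells over each spot, so a spot is a piece of tissue and not a cell. Each of the 4 sections is 1 heart of 1 adult ICR mouse (female and 12 weeks old at the operation, per the methods of the study), at day 1, 4, 7 or 14 after the LAD (the large artery on the front of the left ventricle) was tied off for good, and no uninjured heart was analysed here. ICR is an outbred stock, so the mice of the 4 days may differ in genotype as well, and all had the same operation.

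Each cell cuts its own proteins into peptides in the proteasome, a barrel whose catalytic subunits are Psmb5, Psmb6 and Psmb7 in most cells. Interferons and leukocyte identity bring in Psmb8, Psmb9 and Psmb10 instead, which turns the constitutive proteasome into the immunoproteasome and changes the ends of the peptides that it makes. Tap1 and Tap2 pump these peptides into the endoplasmic reticulum, and Tapbp (tapasin) holds an empty heavy chain with B2m beside the transporter until a fitting peptide is bound. Nlrc5 is recruited to class I promoters and raises the transcription of heavy chains, B2m, Tap1 and Psmb9. Adult cardiomyocytes are known for low class I levels, whereas endothelium and leukocytes express it widely.

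Of the 10 genes, 7 lie on chromosome 17, in or near the major histocompatibility complex (GRCm38, GENCODE annotation). Tapbp is at chr17:33915899-33929292, H2-K1 at chr17:33996017-34000347, Psmb9 at chr17:34181987-34187764, Tap1 at chr17:34187553-34197225, Psmb8 at chr17:34197721-34201454, Tap2 at chr17:34203527-34216321 and H2-D1 at chr17:35262730-35267499. B2m is at chr2:122147686-122153083, Nlrc5 at chr8:94434356-94527272 and Psmb10 at chr8:105935735-105938444. Psmb9 and Tap1 run in opposite directions, and their annotated starts overlap by 212 bases.

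RefSeq promoter windows on GRCm38.p6, from 250 bases before to 50 bases after the start site, were available for 8 of the 10 genes, all but Tap2 and Nlrc5. The windows printed here are those of H2-K1, H2-D1, B2m, Psmb8 and Tap1. Capitals mark matches on either strand to the interferon response motif in the forms GAAANNGAA and GAANNGAAA, to the gamma-activated motif TTCNNNGAA and to the kappaB motif GGGATTCC, none of which overlap each other in these windows. The second form of the interferon motif was added after the windows had been seen.
H2-K1, chr17:34000284-34000583, minus strand: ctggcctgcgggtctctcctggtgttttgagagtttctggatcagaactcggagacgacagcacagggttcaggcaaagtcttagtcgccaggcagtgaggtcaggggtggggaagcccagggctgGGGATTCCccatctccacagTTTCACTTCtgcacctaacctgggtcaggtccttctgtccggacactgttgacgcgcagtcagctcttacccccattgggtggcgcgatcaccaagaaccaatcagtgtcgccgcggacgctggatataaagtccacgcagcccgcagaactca
H2-D1, chr17:35262844-35263143, plus strand: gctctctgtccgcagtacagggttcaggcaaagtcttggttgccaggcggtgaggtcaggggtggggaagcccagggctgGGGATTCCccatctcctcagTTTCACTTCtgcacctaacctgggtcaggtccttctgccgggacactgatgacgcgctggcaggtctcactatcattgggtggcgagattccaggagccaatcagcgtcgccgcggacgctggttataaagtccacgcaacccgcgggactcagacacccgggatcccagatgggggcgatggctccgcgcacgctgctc
B2m, chr2:122147437-122147736, plus strand: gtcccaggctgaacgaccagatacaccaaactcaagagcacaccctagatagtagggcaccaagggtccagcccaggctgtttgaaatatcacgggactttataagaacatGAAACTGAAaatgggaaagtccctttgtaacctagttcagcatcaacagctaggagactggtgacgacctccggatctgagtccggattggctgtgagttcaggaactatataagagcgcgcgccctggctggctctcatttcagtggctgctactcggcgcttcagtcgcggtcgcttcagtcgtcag
Psmb8, chr17:34197945-34198244, plus strand: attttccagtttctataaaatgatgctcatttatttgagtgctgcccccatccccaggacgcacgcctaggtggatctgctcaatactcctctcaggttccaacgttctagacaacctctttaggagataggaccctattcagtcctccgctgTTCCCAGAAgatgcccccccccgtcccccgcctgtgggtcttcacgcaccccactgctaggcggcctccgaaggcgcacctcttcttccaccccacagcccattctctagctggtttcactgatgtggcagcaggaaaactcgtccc
Tap1, chr17:34187306-34187605, plus strand: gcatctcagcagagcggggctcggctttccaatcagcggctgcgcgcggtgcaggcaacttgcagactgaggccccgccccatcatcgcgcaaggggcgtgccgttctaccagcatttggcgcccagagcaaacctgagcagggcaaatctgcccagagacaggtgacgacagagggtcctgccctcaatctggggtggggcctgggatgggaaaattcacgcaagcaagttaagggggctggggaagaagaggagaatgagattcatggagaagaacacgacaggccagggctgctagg

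H2-K1 and H2-D1 aligned over 242 columns with 217 identical bases (89.7%), and both held the kappaB motif and the second interferon form. The kappaB motif stood in 1.06% of the 32851 promoter windows of the reference, the first interferon form in 8.56% and the second in 7.52%. B2m held the first interferon form, 139 bases before its start site. Psmb8 held the gamma-activated motif, which 8.30% of all windows hold. Tap1, Psmb9, Tapbp and Psmb10 held no interferon, gamma-activated or kappaB match. Psmb6, a constitutive subunit, held the second interferon form. The CCAAT motif was found in 6 of the 8 genes and in 37.4% of all windows, with the same site counted for Tap1 and for Psmb9. By their RefSeq start sites Tap1 and Psmb9 start 225 bases apart in opposite directions and share 275 bases of their windows. The printed Tap1 window is therefore nearly that of Psmb9 read from the other strand. RefSeq and GENCODE place some starts differently, so the GENCODE genes overlap by 212 bases. For the same reason the Psmb8 and H2-D1 windows lie inside the GENCODE spans given above. A match describes the letters of the window only, and binding was not measured.

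To follow the genes from tissue poor in cardiomyocyte RNA to tissue rich in it, spots were ranked within each section, without spot positions. The ranking used the share of their unique molecular identifiers (UMIs, 1 per captured mRNA molecule) in Myh6 and Myl2. These are the cardiomyocyte genes for a myosin heavy chain and a myosin light chain. The ranked spots were divided into 4 equal groups, the quartiles, so the lowest quartile is the tissue with least cardiomyocyte RNA. It is not injured heart alone, since on day 7 it also held skeletal muscle RNA, as given below. Its median Myh6 and Myl2 share was 0.755%, 0.154%, 0.200% and 1.01% on days 1, 4, 7 and 14, against 2.53% to 2.78% in the highest. The lowest quartile thus held more heart muscle on days 1 and 14. Its levels on different days are not those of the same tissue, and the part of muscle content in them was not tested. After spots with over 1% hemoglobin UMIs were left out, 7503 of 9102 spots remained, with 1679 to 2086 spots and 9292678 to 15713779 UMIs per section. Median depth per spot in the lowest quartile was 6389, 6524.5, 2826 and 2329.5 UMIs over the days in order, against 5515 to 9221 in the highest. Of the 3178 distinct spot barcodes 1332 occurred in all 4 sections, as a shared slide layout gives, and sections were kept separate throughout. Levels are counts per 1000000 UMIs of a quartile (CPM), and their 95% intervals are exact and cover counting error only. A higher level in a quartile can come from more cells of a type or from more RNA per cell, and the data cannot tell these apart.

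Of the 10 genes, 9 were higher in the lowest quartile than in the highest and none was lower, by edgeR's quasi-likelihood test across the 4 sections with section as a block and an adjusted p under 0.05. By the same test 27.5% of the 11621 genes were higher and 25.0% were lower. Psmb10 was the gene not called. The median log2 fold change of the 10 genes was 0.82, against 0.07 over all genes tested. In CPM all 10 genes were higher in the lowest quartile of each of the 4 sections. On that scale the typical gene moved the same way. With 1 CPM added, the median fold over all genes tested was 1.39, 1.91, 1.67 and 1.24 on days 1, 4, 7 and 14. The share of all genes that were higher in all 4 sections was not counted, so this direction does not set the 10 genes apart. These p-values rest on 4 hearts of 4 different days, so they speak of a difference shared by the days and not of a day. edgeR scales libraries by TMM, which sets the bulk of genes near no change. With totals alone as the scale, 84.5% of the called genes were higher instead of 52.4%, the median of all genes moved from 0.07 to 0.71, the median of the 10 genes moved to 1.45, and all 10 were called.

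**Figure D1:**
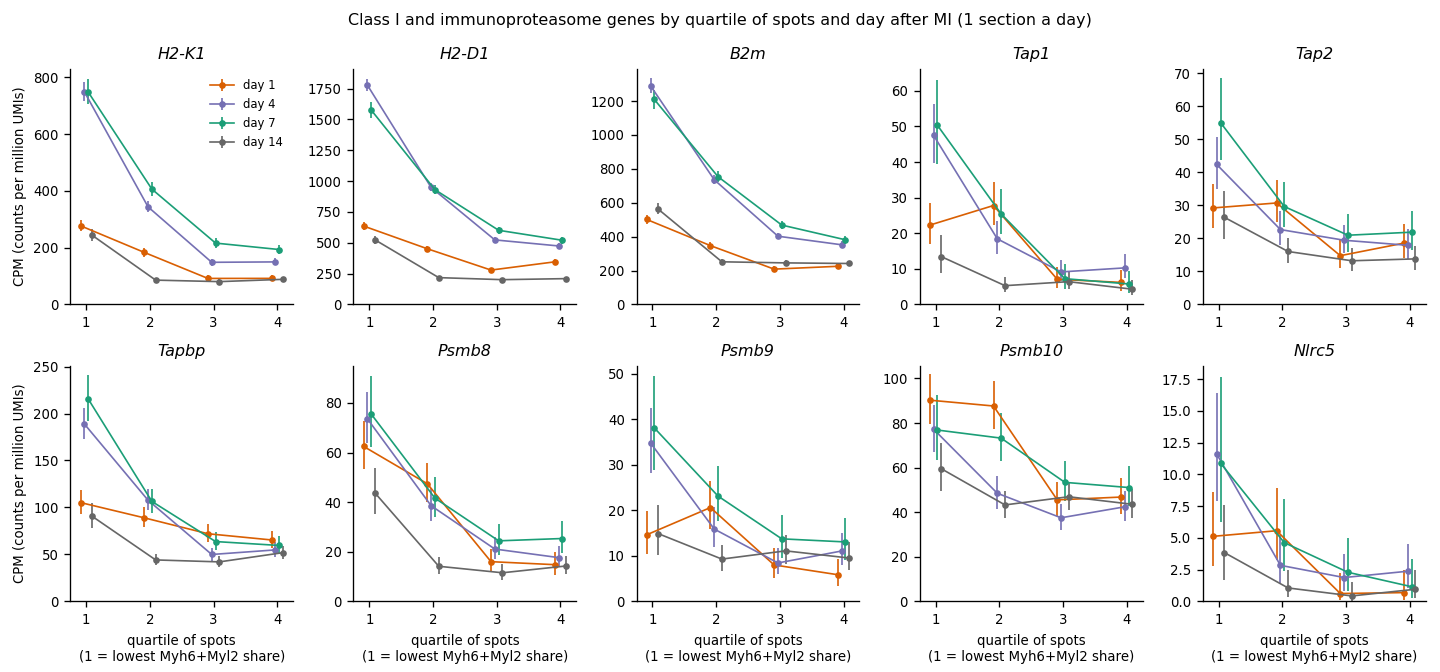
CPM (y axis, from 0, a separate scale for each gene) in the quartiles of spots (x axis, quartile 1 with the lowest Myh6 and Myl2 share) for each gene, with 1 line per day and exact 95% counting intervals as bars. Levels fall from quartile 1 to quartile 3 and 4 on every day for H2-K1, H2-D1 and B2m, whereas Tap1, Tap2, Psmb9 and Nlrc5 on day 1 are as high or higher in quartile 2.

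H2-K1 and H2-D1 are the classical heavy chains that hold the peptide, and B2m is the small chain that each needs to reach the cell surface. H2-K1 stood at 277, 750, 749 and 244 CPM in the lowest quartile on days 1, 4, 7 and 14. In the highest quartile it stood at 91.9, 150, 194 and 88.5. The lowest quartile of days 1 and 14, at 277 and 244, was thus above the highest quartile of every day, and the days did not overlap between the quartiles. The same held in CPM for each of the other genes below, though for H2-D1 only just, at 524 against 520. For Tap1, Tap2, Psmb9, Psmb10 and Nlrc5 the counting intervals of the closest groups overlapped too. Psmb9, for example, was at 14.6 (10.4 to 19.9) against 13.1 (9.04 to 18.2). The share of all genes tested whose days did not overlap between the quartiles was not counted, so this does not set these genes apart. The ratio of the quartiles was 3.02 on day 1 (interval 2.62 to 3.49), 5.00 on day 4 (4.56 to 5.50), 3.87 on day 7 (3.48 to 4.31) and 2.76 on day 14 (2.41 to 3.16). The log2 fold change by edgeR was 1.20 (SE 0.16, adjusted p 3.6e-05).

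H2-D1 stood at 636, 1778, 1576 and 524 CPM in the lowest quartile on days 1, 4, 7 and 14, and at 345, 474, 520 and 209 in the highest. The lowest quartile of day 14 and the highest of day 7 were at nearly the same level, so across days these groups all but met, while within a section the order was clear. H2-D1 differed by a factor of 1.84 on day 1 (1.70 to 1.99) and 3.75 on day 4 (3.55 to 3.96), with a log2 fold change by edgeR of 0.80 (SE 0.17, adjusted p 0.00107). Without the section as a block this call was lost (adjusted p 0.12). B2m stood at 501, 1290, 1209 and 562 in the lowest quartile and at 225, 352, 381 and 242 in the highest, with every lowest quartile above every highest quartile. Its log2 fold change by edgeR was 0.85 (SE 0.16, adjusted p 0.000395).

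The proportions of the 3 chains differed on day 14. Per UMI of B2m there were 1.34 UMIs of H2-D1 on day 1 (1.28 to 1.40), 1.33 on day 4 (1.30 to 1.37) and 1.29 on day 7 (1.24 to 1.33), but 0.871 on day 14 (0.834 to 0.909). All 4 quartiles of day 14 lay between 0.820 and 0.931, and all quartiles of the other days between 1.24 and 1.54. H2-K1 per UMI of B2m was also lowest on day 14, at 0.368 (0.347 to 0.389) against 0.487 to 0.542 on the other days. Such ratios compare days and not the chains, because capture differs between genes. The H2 genes differ in sequence between mouse strains, the reference genome is that of C57BL/6J, and each day is a different outbred mouse. The part of allele differences, of the day and of the single animal in this ratio cannot be told apart. Shared sequence was searched in 50-base stretches of the last 500 bases of the transcript, the end near which this assay captures RNA. The search covered only the class I pathway genes chosen above and genes whose symbols start with H2- or Gm. Of these stretches, 0.443% for H2-K1 (in H2-D1), 6.65% for H2-D1 (most often in predicted genes) and 0% for B2m recurred in another searched gene. Overlap with any other gene was not tested.

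Among 8 other class I heavy chains, all tested, 3 were higher in the lowest quartile and none was lower, with a median log2 fold change of 0.64. They were H2-T23 (log2 0.91, edgeR adjusted p 0.00472), whose product is read by NK cell receptors, H2-T22 (log2 1.30, adjusted p 0.000112) and H2-Q7 (log2 1.09, adjusted p 0.0013). H2-M3, Cd1d1, H2-Q6, Mr1 and H2-Q4 did not pass. These genes are closely related in sequence, so reads can be divided among them in ways that depend on the alleles. The count of 3 of 8 should be read beside the 27.5% of all genes that were higher by this test.

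**Figure D2:**
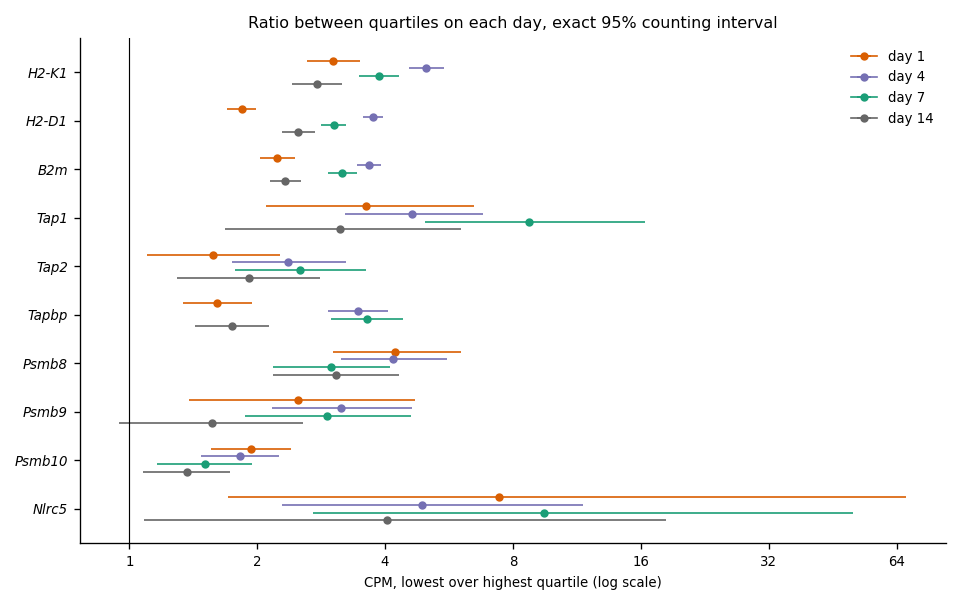
Ratio of CPM in the lowest over the highest quartile (x axis, log scale) for each gene (y axis) and day (colour), with exact 95% counting intervals. Every point is above 1, and the interval of Psmb9 on day 14 and no other reaches 1.

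Tap1 and Tap2 form the peptide transporter, and the difference between their changes was not tested. Tap1 stood at 22.3, 47.5, 50.3 and 13.4 CPM in the lowest quartile on days 1, 4, 7 and 14, and at 6.19, 10.3, 5.76 and 4.28 in the highest. In CPM the lowest quartile was above the highest of every other day for Tap1 as well, with ratios within days of 3.60, 4.62, 8.74 and 3.14. Between days, the intervals of 13.4 on day 14 and 10.3 on day 4 overlapped. The interval of the day 7 ratio ran from 4.97 to 16.4, with 15 UMIs behind its highest quartile. Tap1 had a log2 fold change of 1.54 by edgeR (SE 0.30, adjusted p 0.000594).

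Tap2 stood at 29.2, 42.4, 55.1 and 26.4 CPM in the lowest quartile and at 18.6, 17.9, 21.9 and 13.8 in the highest. Its ratios were 1.57, 2.37, 2.52 and 1.91, and its log2 fold change by edgeR was 0.41 (SE 0.16, adjusted p 0.0424). That call was lost under 12 of 20 alternative settings and should be read as near the threshold. Tapbp stood at 105, 189, 216 and 90.7 in the lowest quartile and at 65.4, 54.8, 59.5 and 51.9 in the highest. Its ratio was 1.61 on day 1 (1.34 to 1.94) and 1.75 on day 14 (1.43 to 2.13), against 3.45 on day 4 (2.93 to 4.07) and 3.62 on day 7 (2.98 to 4.42). By edgeR Tapbp had a log2 fold change of 0.66 (SE 0.18, adjusted p 0.00502), and without the day 7 section the adjusted p was 0.0647.

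Of 5 further genes of peptide trimming and loading, Calr (log2 1.05, edgeR adjusted p 0.000365) and Pdia3 (log2 1.30, adjusted p 0.00014) were higher in the lowest quartile and none was lower. Calr (calreticulin) and Pdia3 are chaperones of the loading complex that also fold other secretory proteins. Canx, the chaperone calnexin, had a log2 fold change of -0.28 (adjusted p 0.135). Erap1, which trims peptides to length, and the tapasin relative Tapbpl did not pass. The median of the 5 was -0.02. The count of 2 of 5 should be read beside the 27.5% of all genes that were higher by this test.

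The immunoproteasome subunits each replace 1 constitutive subunit: Psmb8 takes the place of Psmb5, Psmb9 that of Psmb6 and Psmb10 that of Psmb7. Psmb8 stood at 62.5, 73.6, 75.5 and 43.7 CPM in the lowest quartile on days 1, 4, 7 and 14, and at 14.8, 17.7, 25.3 and 14.3 in the highest, again without overlap. Its ratio was already 4.22 on day 1 (3.01 to 6.05) and was 4.17, 2.98 and 3.06 on the later days. The log2 fold change of Psmb8 by edgeR was 1.18 (SE 0.20, adjusted p 0.000168). Psmb9 stood at 14.6, 34.8, 38.1 and 14.9 in the lowest quartile and at 5.85, 11.1, 13.1 and 9.52 in the highest, with a log2 fold change of 0.65 (SE 0.24, adjusted p 0.0316). Without the day 4 section the adjusted p of Psmb9 was 0.111, and without day 7 it was 0.135. On day 14 its ratio of 1.56 had an interval that included 1 (0.945 to 2.56).

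Psmb10 stood at 90.3, 77.2, 76.9 and 59.5 CPM in the lowest quartile and at 46.8, 42.4, 51.1 and 43.5 in the highest. Its ratios of 1.93, 1.82, 1.51 and 1.37 were the smallest of the 10 genes on days 4, 7 and 14. Relative to the bulk of genes, on the TMM scale, the log2 fold change of Psmb10 was 0.08 (SE 0.15, adjusted p 0.666), and with totals alone as the scale it was 0.72 (adjusted p 0.00118). Its direction on the TMM scale was not fixed, since it was -0.14 between the extreme deciles of spots and -0.05 without the day 1 section.

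**Figure D3:**
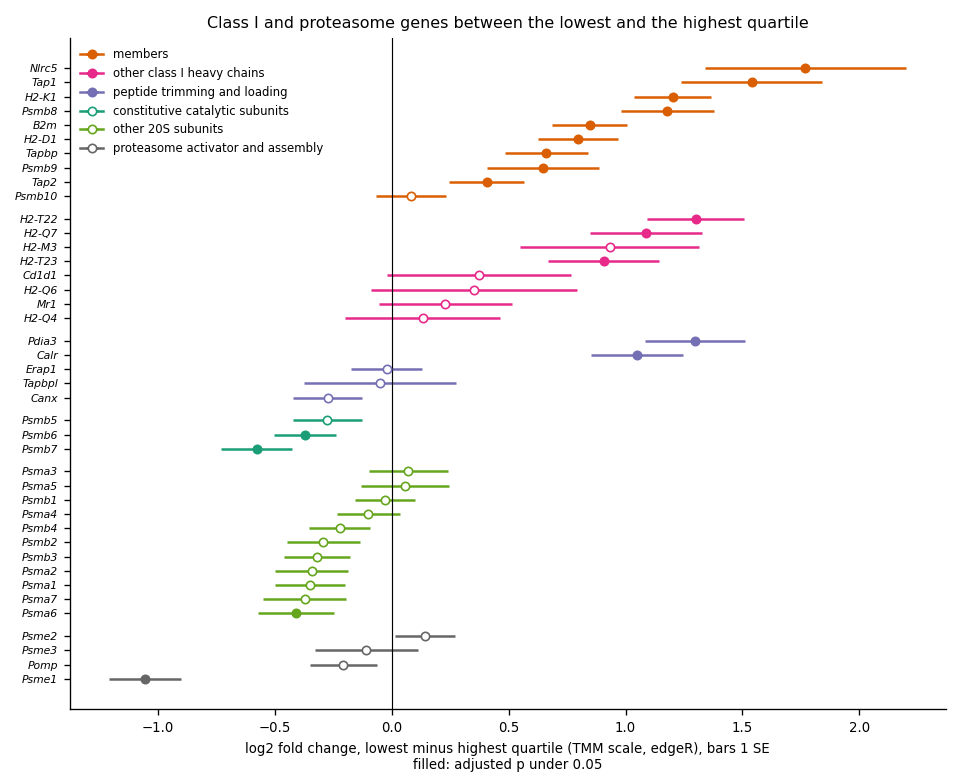
Log2 fold change of the lowest against the highest quartile (x axis, TMM scale of edgeR, bars 1 SE) for the 10 genes, other class I heavy chains, loading genes and proteasome genes (y axis), with filled points for an adjusted p under 0.05. The 10 genes lie right of 0 up to 1.77 for Nlrc5, 3 of the 5 loading genes (Canx, Tapbpl and Erap1) lie left of 0, and so do most other proteasome genes.

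The constitutive partners did not follow. On the TMM scale Psmb6 (log2 -0.37, edgeR adjusted p 0.0288) and Psmb7 (log2 -0.58, adjusted p 0.00468) were lower in the lowest quartile, and Psmb5 had -0.28 (adjusted p 0.126). In CPM, Psmb5 and Psmb6 were higher in the lowest quartile in 3 of 4 sections, so their direction turns with the scale. Psmb7 was higher in CPM in 2 of 4 sections and had no shared direction on that scale. Of 11 other 20S subunits 1 was lower, Psma6 (log2 -0.41, edgeR adjusted p 0.0418), which was higher in CPM in 3 of 4 sections, and none was higher by the test. Psmb4, the most abundant of them, had -0.22 and Psmb1 had -0.03, and both were higher in CPM in 4 of 4 sections, so their direction depends on the scale too. Of the activator and assembly genes, Psme1, a subunit of the PA28 cap, was lower (log2 -1.06, adjusted p 5.49e-05) with fewer CPM in 4 of 4 sections, and its partner Psme2 had 0.14 (adjusted p 0.379).

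A ratio within a quartile does not depend on the scale. Summed immune subunits per constitutive subunit UMI were 0.244, 0.346, 0.391 and 0.288 in the lowest quartile on days 1, 4, 7 and 14, and 0.136, 0.168, 0.207 and 0.154 in the highest. The ratio was higher in the lowest quartile in 4 of 4 sections, by 0.93 on the log2 scale (SD 0.09, n = 4). The exact two-sided permutation test gave p = 0.125, the smallest that 4 sections can give. By pair the mean log2 difference was 1.49 (SD 0.17) for Psmb8 over Psmb5, 1.03 (SD 0.27) for Psmb9 over Psmb6 and 0.67 (SD 0.13) for Psmb10 over Psmb7, each above 0 in 4 of 4 sections. The ratio of Psmb10 to its partner was thus higher in every section, while the call of Psmb10 alone depended on the scale.

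**Figure D4:**
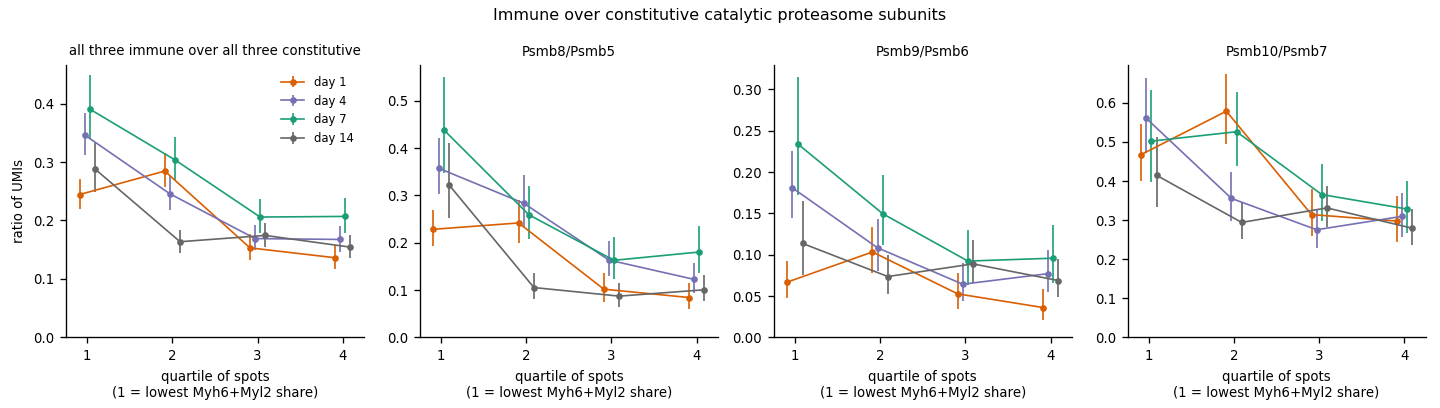
UMIs of the immune subunits per UMI of the constitutive subunits (y axis, from 0) in the quartiles of spots (x axis, quartile 1 with the lowest Myh6 and Myl2 share), summed and for each pair, with 1 line per day and exact 95% counting intervals. Quartile 1 is above quartile 4 on each day in all 4 panels, and on day 1 the summed ratio is 0.285 in quartile 2 against 0.244 in quartile 1.

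Nlrc5, the coactivator, was close to the limit of detection. It had 14, 32, 16 and 8 UMIs in the lowest quartile on days 1, 4, 7 and 14, and 2, 9, 3 and 4 UMIs in the highest. In CPM these are 5.12, 11.6, 10.9 and 3.84 against 0.688, 2.37, 1.15 and 0.952. The log2 fold change by edgeR was 1.77 (SE 0.43, adjusted p 0.00265). The interval of its ratio on a single day was wide, from 1.71 to 67.4 on day 1 and from 1.08 to 18.3 on day 14.

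Within single days, the level was at least 2-fold higher in the lowest than in the highest quartile for 6, 9, 9 and 6 of the 10 genes, taking days 1, 4, 7 and 14 in order. The same fold was reached by 30.1%, 50.5%, 42.6% and 21.2% of all genes tested. With 1 CPM added to both quartiles, the median fold of the 10 genes was 2.25, 3.70, 3.09 and 2.40, against 1.39, 1.91, 1.67 and 1.24 over all genes tested. The day 7 section had 118 spots with at least 10 UMIs from a list of 10 fast skeletal muscle genes, and the other sections had none. Without those spots the median log2 ratio of the 10 genes on day 7 was 1.84, against 1.63 with them. Of the 30982 UMIs of that list on day 7, 29907 lay in the lowest quartile, at 20340 CPM.

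Across whole sections H2-K1 was at 158, 313, 347 and 106 CPM on days 1, 4, 7 and 14, so its order was day 7, day 4, day 1 and day 14, with each step beyond counting error. H2-D1 was at 421, 856, 825 and 251, and its day 7 over day 4 ratio was 0.963 (0.936 to 0.991). B2m was at 315, 642, 641 and 288, and its days 4 and 7 did not differ beyond counting error. Psmb8 changed less, at 34.4, 34.6, 37.6 and 17.3, and the intervals of its first 3 days overlapped. Tap1 was at 15.7, 19.1, 18.7 and 6.43, Tap2 at 23.1, 24.3, 29.1 and 15.97, Tapbp at 82.3, 92.1, 98.5 and 51.7, and Psmb9 at 12.2, 16.03, 20.02 and 10.6. Psmb10 had its highest value on day 1, at 66.9, followed by 62.0 on day 7, 49.1 on day 4 and 46.6 on day 14. On day 4 the chains were higher than on day 1 by a factor of 1.98 for H2-K1, 2.03 for H2-D1 and 2.04 for B2m. Psmb8 differed by 1.01 (0.880 to 1.15) and Psmb10 by 0.735 (0.663 to 0.814) between the same days. A list of 8 macrophage genes was at 628 and 2079 CPM in the whole sections of days 1 and 4, and 6 fibroblast genes at 1382 and 7606. The part of tissue content in the whole-section levels was not tested. The days are single mice, with no test between them.

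In the second quartile against the highest, H2-K1 (log2 0.65, edgeR adjusted p 0.0386) and Tap1 (log2 1.22, adjusted p 0.0405) were higher and no other member was called. By this test 3.18% of all genes were higher and 0.379% were lower. Neither call passed without day 1, day 4 or day 7, with adjusted p-values between 0.201 and 0.303 and log2 fold changes of 0.57 to 0.61 for H2-K1 and 0.91 to 1.52 for Tap1, and without day 14 both passed along with B2m and Psmb8. Both were also lost with spots of at least 1000 UMIs (adjusted p 0.0616 for H2-K1 and 0.0715 for Tap1, edgeR) and without the section block (0.467 and 0.259). H2-K1 was lost without skeletal muscle spots (0.0583) and Tap1 with hemoglobin at most 0.5% (0.0567). In the third quartile against the highest 0% of the genes were higher and 0% lower by edgeR, with 92 higher and 76 lower at an unadjusted p under 0.05 and no member among the adjusted calls. The spread in this test was estimated from all 16 sums together. The lack of calls therefore does not show that these quartiles are alike.

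Day 1 had an order of its own. H2-K1, H2-D1 and B2m were lower in the second quartile than in the lowest, with ratios of 0.662 (0.592 to 0.739), 0.710 (0.661 to 0.763) and 0.692 (0.638 to 0.750). Tap1 was at 27.8 CPM in the second quartile and 22.3 in the lowest, a ratio of 1.25 (0.887 to 1.76), and Psmb9 at 20.6 and 14.6, a ratio of 1.41 (0.934 to 2.15). For Tap2 the ratio was 1.05, for Nlrc5 1.09 and for Psmb10 0.971, and none of these intervals excluded 1. Psmb8 had a ratio of 0.759 (0.604 to 0.952) and Tapbp one of 0.845. On days 4, 7 and 14 the ratio was under 1 for all 10 genes. Genes known to be induced by type I interferon, such as Isg15, Bst2 and Irf7, were also at a higher level in the second quartile on day 1, with a summed 445 CPM in the second quartile and 392 in the lowest, a ratio of 1.14 (1.05 to 1.23). Genes known to be induced by interferon gamma had a ratio of 1.32 (1.18 to 1.46).

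**Figure D5:**
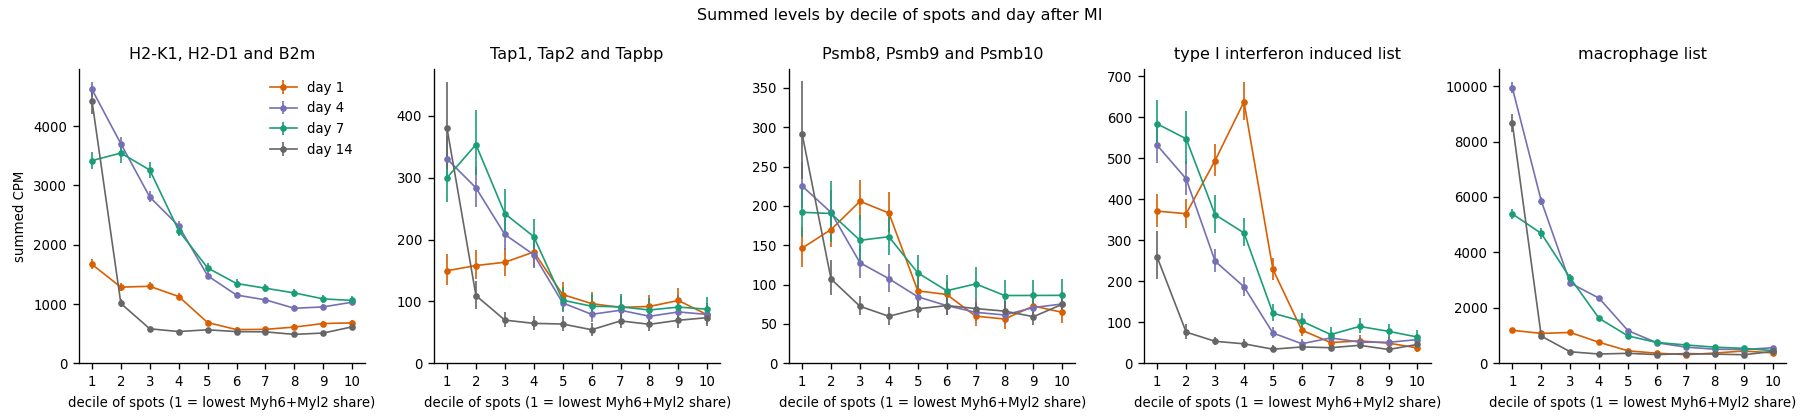
Summed CPM (y axis, from 0, a separate scale for each panel) in deciles of the ranked spots (x axis, 1 with the lowest Myh6 and Myl2 share), with 1 line per day and exact 95% counting intervals. On day 14 the chains fall from 4433 in the first decile to 1009 in the second, and on day 1 the immunoproteasome and interferon genes are highest in the third and the fourth decile.

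Finer ranking showed how far along the order of spots the levels stayed high, without regard to where the spots lie. On day 14 the summed chains H2-K1, H2-D1 and B2m were at 4433 CPM in the first decile of spots, 1009 in the second and 487 to 615 in all others. That first decile was close to the first decile of day 4, at 4622, although the quartiles of day 14 were far lower. It was also the shallowest, with a median of 1140 UMIs per spot over 209 spots and 89 UMIs of Psmb8, Psmb9 and Psmb10 together. The macrophage list stood at 8666 CPM in the same decile and at 981 in the second, and its part in the class I level there was not tested. With spots under 1000 UMIs left out, the median log2 ratio of the 10 genes between the quartiles of day 14 was 0.833 in place of 1.27. On day 4 the chains fell step by step, from 4622 to 2317 over the first 4 deciles, and on day 7 they were at 3420, 3547, 3261 and 2238 there. On day 1 the immunoproteasome genes were at 146 in the first decile, 206 in the third and 191 in the fourth, then at 92.0 in the fifth. The type I interferon list was at 371 in the first and 638 in the fourth decile of day 1. The macrophage list, in contrast, did not exceed its first decile anywhere on day 1, at 1190 against 1112 in the third.

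The list of type I interferon genes had 11 of 11 tested members higher in the lowest quartile, with a median log2 fold change of 2.24. In the second quartile 9 of them were higher than in the highest. Over all genes 27.5% were higher in the lowest quartile and 3.18% in the second. Without day 1, day 4 or day 7, the 370 genes called higher in the second quartile fell to 2, 0 and 1. In the type I interferon list Bst2 (tetherin, log2 1.54), Isg15 (a ubiquitin-like protein, log2 2.87) and Irf7 (an interferon regulatory factor, log2 2.43) had the most UMIs. Isg15 was at 92.4, 83.7 and 88.4 CPM in the lowest quartile on days 1, 4 and 7, and at 6.72 on day 14, where its ratio of 2.02 had an interval that included 1 (0.891 to 4.56). The whole type I interferon list was at 90.7 CPM in the lowest quartile of day 14 and at 40.2 in the highest. For interferon gamma the picture was mixed. In its signalling list Jak2 (log2 0.87), Irf9 (log2 1.11) and Irf8 (log2 1.99) were higher. Ifngr2, a chain of the interferon gamma receptor, was lower (log2 -0.78, edgeR adjusted p 0.000868). Ifngr1 (log2 0.28, adjusted p 0.108), Jak1 (-0.27, 0.102) and Irf1 (0.46, 0.121) were not called by edgeR, nor were Irf2, Rfx5, Rfxank and Rfxap. Over all genes 27.5% were higher and 25.0% lower, and the calls of this and the next list should be read beside these shares. Ifngr2 had more CPM in the lowest quartile in 2 of 4 sections. Ifng itself had no UMI in the kept spots of any section, where 3 UMIs in the day 7 section would be 0.323 CPM.

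Of 12 tested genes known to be induced by interferon gamma, 4 were higher (Cxcl10, Ifi47, Gbp3 and Socs1) and 1 was lower. That gene was Iigp1, an immunity-related GTPase with the most UMIs of the list (log2 -0.82, adjusted p 0.0333). Gbp2, a guanylate-binding protein, had 0.79 (adjusted p 0.0503) and Irgm1 had 0.82 (adjusted p 0.0506). The class II list, which serves CD4+ T cells, had 6 of 6 tested genes higher, with H2-Aa at log2 1.87, H2-Ab1 at 1.95 and Cd74, the invariant chain, at 2.34. Each of these was larger than the values of the class I chains on the same scale, and the difference between the lists was not tested.

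Markers of several cell types moved with the same ranking. All 8 macrophage markers were higher in the lowest quartile, and their summed level was 1137, 6675, 4942 and 1849 CPM there against 345 to 520 in the highest. All 4 tested neutrophil markers were higher, and 2 of their 6 genes were too rare to test. The neutrophil sum was 417 in the lowest quartile on day 1 and 77.6 to 164 later. Of 6 fibroblast genes 5 were higher, with a sum of 26348 in the lowest quartile of day 4. All 8 cardiomyocyte genes outside the ranking were lower, which a ranking on Myh6 and Myl2 all but fixes in advance. The sum of these 8 genes in the lowest quartile was 29618.5, 11232.2, 8691 and 38226.1 CPM on days 1, 4, 7 and 14, against 48893.8 to 55243.3 in the highest. Of 8 endothelial genes none was higher and 2 were lower, and their sum was 586 to 812 in the lowest quartile against 498 to 745 in the highest. The T and NK cell list of 12 genes summed to 12.8 to 21.1 CPM in the lowest quartile and 2.86 to 4.13 in the highest, with 0 to 4 UMIs of Cd8a in any one quartile. None of its genes had enough UMIs to test, and the same held for 4 B cell genes. Among 5 smooth muscle genes 3 were higher and 1 was lower. Only 1 of 6 dendritic cell genes had enough UMIs to test, and it was not called. All these counts should be read beside the 27.5% of all genes that were higher and the 25.0% that were lower. The part of each cell type in the levels of the class I genes was not tested.

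In the lowest quartile the 10 genes summed to 1744, 4294, 4056 and 1583 CPM on days 1, 4, 7 and 14. In the highest quartile, where macrophage markers were at 400, 520, 516 and 345, the 10 genes were at 820, 1133, 1273 and 678. In that quartile H2-K1 was higher on day 7 than on day 1 by a factor of 2.11 (1.81 to 2.45), and H2-D1 and B2m by 1.51 and 1.69. On day 14 H2-K1, H2-D1 and B2m stood at 88.5, 209 and 242 CPM there, against 91.9, 345 and 225 on day 1. Each day is a single mouse, the interval covers counting error only, and the days were not tested against each other.

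The 10 genes were alike over the 16 quartiles as a description, without a test, since all share libraries and depth. The Pearson correlation of each with the mean of the others was 0.919 to 0.969 for 9 genes and 0.779 for Psmb10. How many of all genes reach such values was not counted, so this likeness does not set apart the 10 genes. Of 4762 other genes with at least 1000 UMIs, those most like their mean pattern were Lox (0.984), Medag, Laptm5, Qsox1, Plxnb2, Tagln2, Arl6ip1, Pld4, Sh3gl1 and Id3 (0.976). Lox is a collagen cross-linking enzyme and Laptm5 a lysosomal protein of leukocytes. With differences between quartiles removed, the most alike were Arid1a (0.965), Lox, Ncbp2, Laptm5, Hnrnpul2, Sh3gl1, Medag, Tagln2, Ifi27 and Id3 (0.950). By rank correlation 3 and 1 of these 10 returned, so the order at the top is not settled.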

How the data were processed

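The authors aligned the reads to mm10 with Space Ranger 1.3.0 and deposited filtered UMI counts per gene and spot, 1 section a day, from 1 mouse each. The submitters' notes also name Seurat 4.1.1. Spots with over 1% of counts in 10 hemoglobin genes were left out. Counts were summed over quartiles of spots into 16 sums. Genes with at least 100 UMIs over these sums were tested with edgeR 4.0.16 (limma 3.58.1, R 4.3.3). The fit used TMM, robust quasi-likelihood, section as a block and Benjamini-Hochberg adjustment over 11621 genes. The procedure was first run on simulated counts without section effects and with few changed genes. That run does not test the scale or the block in these data. Each day is 1 section, and days were not tested against each other. The p-values measure how quartile differences vary over 4 single sections of different days. That spread was estimated from all 16 sums together, with 9 residual degrees of freedom. With only the lowest and the highest quartile in the fit, 2229 genes were higher, and H2-K1 had an adjusted p of 0.00583 by edgeR. In that edgeR fit 7 of 9 tested members were called. H2-D1 (adjusted p 0.0473), Tapbp (0.0436), B2m (0.0291) and Psmb9 (0.0261) were the called members nearest the threshold. Ratio intervals are exact, at 95%. DESeq2 1.42.0 and other filters, rankings and scales were alternatives. Spot positions were not used here. The members and lists were chosen with earlier results of these data known. Named genes are the members, up to 3 of each list with the most UMIs, and the 10 most alike, and the genes that make up a count of 5 or fewer were named after their values were seen. Counts where Psmb9 and Tap1 overlap were taken as deposited and are uncertain there. One item of the interferon signalling list is not reported here.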

Additional observations from a re-analysis of the deposited data

How the results depend on the processing

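Of the 10 genes, 5 (H2-K1, B2m, Tap1, Psmb8 and Nlrc5) were called between the lowest and the highest quartile under each alternative fit that tested them, which was 20 fits for H2-K1, B2m and Psmb8, 19 for Tap1 and 17 for Nlrc5. Nlrc5 was not tested with only the compared quartiles, without day 4 or among genes of at least 1000 UMIs. Tap2 lost its call in 12 of 20, with an adjusted p of up to 0.26, Psmb9 in 4 of 19 (DESeq2 0.0561, no section block 0.0606, without day 4 0.111, without day 7 0.135), H2-D1 without the block (0.12) and Tapbp without day 7 (0.0647). Psmb10 reversed to -0.139 between deciles and to -0.047 without day 1, with a range of -0.047 to 0.164 over the sections left out. Genes higher and lower over all tested, 3201 and 2904, became 6761 and 1240 with totals alone, where the members' median was 1.45, and 1679 and 1547 of 4769 among genes of at least 1000 UMIs, a filter that also leaves Tap1 and Psmb9 untested. Genes lower were 1869 with only the compared quartiles, and leaving out sections gave 2100 to 3032 genes higher. Between the second and the highest quartile, 370 higher and 44 lower became 160 and 9 among genes of at least 1000 UMIs, 0 and 0 without the block, 225 and 9 with spots of at least 1000 UMIs, 683 and 192 when ranked without mitochondrial UMIs, and 0 to 961 and 0 to 563 with sections left out (the high ends without day 14). Genes lower there were 16 with totals alone, 77 without the hemoglobin filter and 15 without skeletal muscle spots. The members' median log2 ratio of CPM was 1.39 on day 4 (1.89 in the report's setting) and 1.27 on day 7 (1.63) with Myh6, Myl2 and mitochondrial counts left out. On day 14 (1.27) it was 1.68 without the hemoglobin filter, 0.833 with spots of at least 1000 UMIs, 1.66 when ranked without mitochondrial UMIs, 2.79 between deciles and 0.896 with 3 groups in place of 4. The causes were not tested. The section block pairs the quartiles of a section in the fits of the report. Between days, no paired analysis was possible because each day has 1 section. Few UMIs limit Nlrc5 most.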
